A study of Mus musculus with 18 samples.

Results

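Polycomb repressive complexes keep developmental genes silent in the cells that do not use them. EZH2, the enzyme of Polycomb repressive complex 2, places the trimethyl mark on lysine 27 of histone H3 (H3K27me3), and acetylation of the same lysine (H3K27ac) marks active promoters and enhancers, so that a single histone tail cannot carry both. In a macrophage the mark is known from the genes of other lineages, such as transcription factors of neurons, muscle and lymphocytes. The regions described here are the stretches of H3K27me3 that lie over the start of a protein-coding gene and were called in bone marrow-derived macrophages (BMDM) of all 3 genotypes of the study.

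The regions were selected on the peak lists themselves. Peaks of the WT, mdx and mdxTLR4-/- lists on chromosomes 1 to 19 sharing 1 bp or more were joined, and a joined region was kept where a peak of each of the 3 lists touched it, where it was shorter than 50 kb, and where it held the 5′ end of at least 1 protein-coding gene of GENCODE vM21. This gave 3665 regions of 36072 merged regions, or of 17005 that all 3 lists shared. The other shared regions were 12546 away from any protein-coding start and 794 domains of 50 kb or more. Since the rule asked for a peak in every list, the presence of H3K27me3 in them is not a result. The 5 longest regions kept, among them those over Alox12e and Alox15, over Foxd1 and over Hunk, were 49800 bp long, and the shortest shared domains with a start that the limit left out, over Prodh2 and over Nr2f2, were 50000 bp long.

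BMDM were grown from the marrow of male mice in medium with macrophage colony-stimulating factor, and they were left unstimulated. WT mice were labelled C57BL6, mdx mice Dmdmdx-4Cv, a line with a mutation in the dystrophin gene (Dmd), and mdxTLR4-/- mice, which carry the dystrophin mutation and lack the innate immune receptor TLR4, were labelled Bl6/Bl10. Titles of their H3K27me3 libraries read mTLR4, which was taken to mean mdxTLR4-/- from the study's groups. In these libraries the deletion of Tlr4 is present only on the mdx background, so that the groups hold no TLR4-deficient mice with intact dystrophin. The study used BMDM of such mice in another experiment, on training with muscle extract. Labelled ages of the H3K27me3 libraries were 12 and 13 weeks for WT, 14 and 15 weeks for mdx, and 16 and 17 weeks for mdxTLR4-/-. Over all 18 libraries the labelled ages form a running series in steps of 1 week, inputs included (6 and 7 weeks for the WT inputs), and the study's methods place all strains on a C57BL/6J background. If the labels hold, age and strain cannot be told apart from genotype. The libraries for H3K27ac were labelled 19 and 20 weeks for WT, 21 and 22 weeks for mdx and 23 weeks for the 1 mdxTLR4-/- library.

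The authors merged the 2 H3K27me3 libraries of a genotype before they called peaks, so each genotype has 1 list, no spread between mice is available and no test between genotypes was made. The H3K27me3 lists held 28024 autosomal peaks (WT), 41558 (mdx) and 36294 (mdxTLR4-/-), and the reads in them came to 8.32e+06, 1.02e+07 and 7.34e+06. These sums follow what was called and are not library depths, which are unknown. The H3K27ac lists were shallow, with a median of 11, 10 and 8 reads in a peak. Of 12 macrophage markers, 10 had a H3K27ac peak within 1 kb of the start in each of the 3 lists, while the 8 muscle, 6 fibroblast and 8 lymphoid markers had none. Values below are read counts in the peaks of a region, the length under those peaks, and their quotient in reads per kb of peak. Intervals are at the 95% level, and what they hold is counting error or the spread among regions, not that among mice.

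The starts under these regions were of different sequence kinds. CpG dinucleotides are depleted in most of the mouse genome and kept at CpG islands, the places where Polycomb complexes are known to bind in mammals. Around each start, in 500 bp on both sides, the observed count of CpG was divided by the count expected from the C and G content, and a quotient of at least 0.6 was called CpG-rich. The 150 bases before the RefSeq start of 5 genes with CpG-rich starts are printed first, 5′ to 3′ on the strand of the gene, with each CpG in capitals. They were chosen for their place in the results: Skor1 and Rfx4 lie under 2 of the densest regions, Foxd1 under one of the longest, and Gata2 and Tbx21 encode lineage factors of blood cells.
Skor1, chr9:63148962-63149111, minus strand: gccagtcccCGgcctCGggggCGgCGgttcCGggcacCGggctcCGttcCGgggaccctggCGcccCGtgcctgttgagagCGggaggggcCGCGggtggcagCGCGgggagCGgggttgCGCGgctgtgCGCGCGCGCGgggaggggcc
Gata2, chr6:88193741-88193890, plus strand: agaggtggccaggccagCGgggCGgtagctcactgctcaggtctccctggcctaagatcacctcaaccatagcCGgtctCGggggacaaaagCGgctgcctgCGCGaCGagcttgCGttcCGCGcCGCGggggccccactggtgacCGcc
Tbx21, chr11:97115332-97115481, minus strand: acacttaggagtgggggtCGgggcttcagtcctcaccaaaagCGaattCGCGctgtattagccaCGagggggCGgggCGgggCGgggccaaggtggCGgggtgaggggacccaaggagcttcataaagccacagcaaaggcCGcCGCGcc
Foxd1, chr13:98354092-98354241, plus strand: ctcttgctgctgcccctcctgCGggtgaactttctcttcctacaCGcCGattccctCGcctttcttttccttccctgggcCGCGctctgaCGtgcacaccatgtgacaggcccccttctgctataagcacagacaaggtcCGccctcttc
Rfx4, chr10:84755898-84756047, plus strand: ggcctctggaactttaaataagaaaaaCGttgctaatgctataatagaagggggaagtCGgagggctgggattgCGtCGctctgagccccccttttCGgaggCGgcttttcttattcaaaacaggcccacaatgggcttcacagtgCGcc
The stretch before Skor1 holds 23 CpG, that before Gata2 14 and that before Tbx21 12, while Foxd1 has 8 and Rfx4 7. The next 4 starts were CpG-poor over their 1 kb window: Acta1, the actin of skeletal muscle, Il12a, the p35 subunit of interleukin 12, Rag1, the recombinase of lymphocytes, and Il4, the T-helper cytokine.
Acta1, chr8:123894776-123894925, minus strand: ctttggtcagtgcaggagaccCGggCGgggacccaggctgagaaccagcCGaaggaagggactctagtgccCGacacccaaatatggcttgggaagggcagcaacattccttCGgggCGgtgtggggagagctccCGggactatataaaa
Il12a, chr3:68690494-68690643, plus strand: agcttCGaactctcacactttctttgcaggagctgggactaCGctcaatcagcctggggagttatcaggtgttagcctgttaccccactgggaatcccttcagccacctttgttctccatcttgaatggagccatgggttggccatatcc
Rag1, chr2:101649533-101649682, minus strand: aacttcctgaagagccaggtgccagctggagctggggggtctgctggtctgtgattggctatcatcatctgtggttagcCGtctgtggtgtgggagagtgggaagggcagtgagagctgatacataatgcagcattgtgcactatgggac
Il4, chr11:53618670-53618819, minus strand: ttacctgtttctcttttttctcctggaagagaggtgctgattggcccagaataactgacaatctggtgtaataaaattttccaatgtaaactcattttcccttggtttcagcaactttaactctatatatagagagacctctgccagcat
Here the capitals number 7 before Acta1, 2 before Il12a, 1 before Rag1 and 0 before Il4. The sequences are from RefSeq on GRCm38.p6, the chromosomes of mm10, and none of their bases lies in an annotated exon of GENCODE vM21, for which 3 bases next to the start of Foxd1 and 4 next to that of Il4 were left out. The RefSeq start was at most 31 bases from the GENCODE start in these 9 genes.

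Over all regions, 1652 of 4131 starts were CpG-rich, or 39.99% (Wilson interval 38.5 to 41.5), against 50.8% (50.02 to 51.6) of the 15055 starts in no H3K27me3 region and 16.7% (13.9 to 19.9) of the 588 starts in regions that not all 3 lists shared. The quotient of observed to expected CpG at the start had a median of 0.514 in the shared regions and 0.610 outside any region. Within the 3287 regions with a single start, the 1439 with a CpG-rich start had a median of 36.5 reads per kb in WT BMDM (quartiles 30.6 and 43.6) and the 1848 with a CpG-poor start 30.4 (25.2 and 38.5). Their median lengths were 12400 and 11800 bp. The regions with CpG-rich starts thus had the higher density at a similar length. Base composition can change how well fragments are sequenced, and its part in this difference was not tested.

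Regions over starts were longer, denser and richer in CpG than shared regions away from starts. Their median length was 12800 bp (quartiles 7200 and 23000) against 8000 bp (5400 and 12800); a longer region has more room for a start, and the part of this was not tested. Their WT density was 33.8 reads per kb (27.05 and 41.6) against 23.9 (21.1 and 27.9). The order held in each length class. Below 5 kb the medians were 30.3 and 24.1 reads per kb, from 5 to 10 kb 32.1 and 22.9, from 10 to 20 kb 33.2 and 24.4, and from 20 to 50 kb 37.0 and 27.4. The quotient of observed to expected CpG over the whole region was 0.275 against 0.199. It fell with length in the regions over starts, from 0.408 below 5 kb to 0.245 above 20 kb, and was between 0.198 and 0.201 in every length class of the regions away from starts. The rule puts a start in every region of the first kind and in none of the second. Around all protein-coding starts, in 500 bp on both sides, the median quotient was 0.568. The part of the rule in the CpG difference and in its fall with length was not tested.

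Most regions held the start of a single gene: 3287 held 1, 310 held 2, 54 held 3, 8 held 4 and 6 held 5. Of the regions with 5 starts, one covered the alpha-globin locus, with Hba-x, Hba-a1, Hbq1b, Hba-a2 and Hbq1a, over chr11:32268001-32308400, and held 1103 reads (WT), 1222 (mdx) and 1071 (mdxTLR4-/-). Another covered Jrk, Psca, Them6, Slurp1 and Lypd2 on chromosome 15, where Psca, Slurp1 and Lypd2 belong to the Ly6 family of small surface and secreted proteins. Reads from near-identical copies such as Hba-a1 and Hba-a2 cannot be assigned with certainty, so only the sum over such a cluster is given.

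The 3665 regions held 4131 of the 20807 protein-coding starts on chromosomes 1 to 19, a background of 19.9%. Genes that direct development were found in them far more often than this. The regions held 69 of 126 homeobox factors outside the Hox clusters (54.8%), 19 of 32 Sox and Pou factors (59.4%), 35 of 62 basic helix-loop-helix lineage factors (56.5%), 20 of 41 forkhead factors (48.8%), 11 of 21 T-box and Gata factors (52.4%) and 15 of 30 KLF, ZIC, GLI and SALL factors. The Hox genes themselves were elsewhere: 33 of 39 lay in shared domains of 50 kb or more, and Hoxa2 was the 1 Hox gene (2.56%) under a region of the shorter kind. Of the signalling families, 31 of 50 Wnt ligands, Frizzled receptors and antagonists (62.0%), 26 of 41 TGF-beta, BMP and GDF genes (63.4%) and 14 of 25 FGF ligands and receptors (56.0%) had their start in a region. Genes of the nervous system did as well, with 39 of 70 axon guidance genes (55.7%), 76 of 134 voltage-gated and potassium channels (56.7%) and 51 of 97 neurotransmitter receptors (52.6%). Of the matrix, 18 of 42 collagen genes (42.9%) and 26 of 49 matrix proteases and inhibitors (53.1%) were included. The lists were written with earlier results of these data known, so the shares describe the regions and were not tested.

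**Figure D1:**
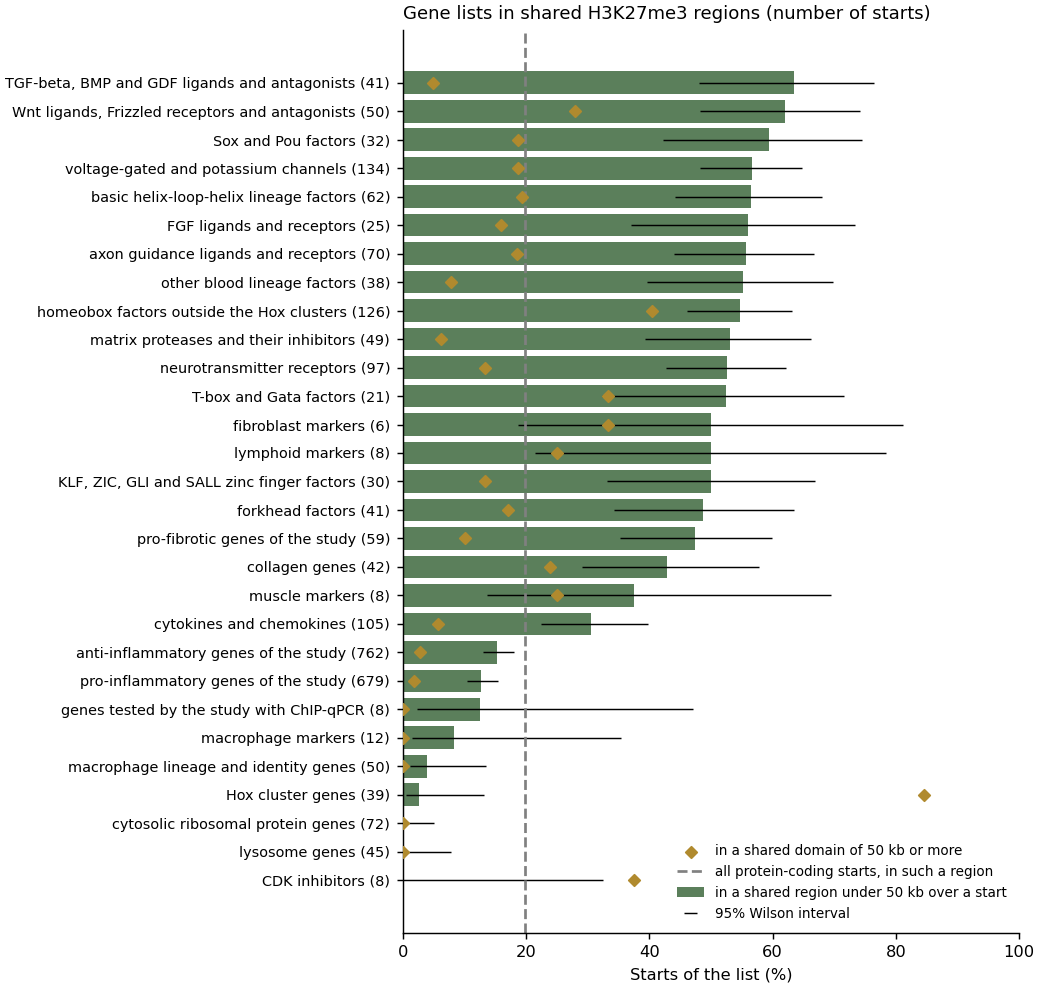
Share of the protein-coding starts of each of 29 gene lists that lie in the shared H3K27me3 regions under 50 kb (bars, percent on the x axis, with 95% Wilson intervals) and in shared domains of 50 kb or more (diamonds), with the number of starts of each list in parentheses. The dashed line is the 19.9% of all protein-coding starts; developmental and signalling lists lie to its right, and ribosomal and lysosome genes at 0.

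Housekeeping and macrophage genes were almost absent. None of 72 cytosolic ribosomal protein genes (0%, Wilson interval up to 5.07%) and none of 45 lysosome genes (up to 7.87%) had a start in a region, and all of them lay outside every H3K27me3 region. The CDK inhibitors, which include the classical Polycomb targets Cdkn2a and Cdkn2b, had 0 of 8 in these regions and 3 of 8 in domains of 50 kb or more. Of 50 genes of macrophage lineage and identity, 46 were in no region and 2 (4.0%), among them Fcgr3, were in a shared region over a start. Of 12 macrophage markers, 1 (8.3%) was in a region. Muscle markers had 3 of 8 (37.5%), namely Ckm, Myod1 and Acta1. Fibroblast markers had 3 of 6, namely Pdgfra, Col1a2 and Thy1. Lymphoid markers had 4 of 8, among them Ebf1, Cd8a and Cd3g. Of the lists that the study drew up, pro-inflammatory genes had 86 of 679 (12.7%), anti-inflammatory genes 117 of 762 (15.4%) and pro-fibrotic genes 28 of 59 (47.5%). Of the 8 genes that the study tested by ChIP-qPCR, Il12a was in a region (12.5%) and the other 7 were in no H3K27me3 region.

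The densest of the 3665 regions in WT lay over Fcgr3, which encodes an Fc receptor for IgG that macrophages express. It spanned chr1:171063601-171099400, with the start of Fcgr3, a gene on the minus strand, at 171064935 near its left edge. It held 6528 reads (WT), 6789 (mdx) and 6980 (mdxTLR4-/-), which gave 183, 194 and 207 reads per kb, and no H3K27ac peak of any list touched it. Among all autosomal H3K27me3 peaks of a list, the densest peak over Fcgr3 ranked 6, 9 and 3 by density in the WT, mdx and mdxTLR4-/- lists. The next densest regions reached 93.5 reads per kb in WT. Of the 391 tRNA genes that RefSeq places on chromosomes 1 to 19, 15 lie in this region and at most 1 in any other region of the set. tRNA genes come in near-identical copies, whose reads cannot be assigned with certainty, and the part of these copies in the density was not tested. Rfx4, a transcription factor of the neural tube, lay under 93.5, 113 and 89.4 reads per kb in the WT, mdx and mdxTLR4-/- lists. Skor1, a corepressor of spinal cord neurons, lay under 92.4, 104 and 87.0. The stress kinase genes Mapk12 and Mapk11 shared a region with 91.6, 103 and 93.6.

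Among the lists with at least 11 regions, the homeobox regions were the densest, with a median of 52.2 reads per kb in WT over 66 regions, against 33.8 over all 3665. T-box and Gata factors followed with 49.8, basic helix-loop-helix factors with 46.1, Sox and Pou factors with 45.2, other blood lineage factors with 44.2, TGF-beta, BMP and GDF genes with 43.2 and forkhead factors with 42.0. Cytokines and chemokines (31.6), pro-inflammatory genes (32.7) and anti-inflammatory genes (33.4) were near or below the median of the whole set. The pro-fibrotic genes stood higher, at 40.4.

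Factors of other blood lineages were often under a region. Of 38 listed, 21 (55.3%) had their start in a region, and 19 of these starts were under a peak in all 3 lists, as were 82.3% of all starts in the regions. Gata2, a factor of blood stem and mast cells, was the densest, with 1862 reads (WT), 2151 (mdx) and 1804 (mdxTLR4-/-) over chr6:88184601-88210600, or 71.6, 86.7 and 70.5 reads per kb. The factors of T cells had lower and similar values. Tcf7 lay under 40.6, 47.8 and 42.9 reads per kb, and Lef1, its partner, under 41.0, 54.0 and 43.2. Bcl11b had 44.5, 55.3 and 44.4. Gata3, which directs T-helper 2 cells, held 1480, 1908 and 1388 reads in a region of 29800 bp shared with 2 other starts, 4930412O13Rik and 9230102O04Rik. Tbx21, which directs T-helper 1 cells, had 39.7, 47.9 and 40.7 reads per kb, and Eomes, its paralog, 49.8, 58.9 and 49.5. The B cell factor Ebf1 had 52.3, 64.3 and 60.0. In each of these 8 regions the mdx list was the highest, unscaled for depth, as in 17 of the 21 and in 88.1% of all the regions. Rag1, the recombinase of lymphocytes, had a small region of 3000 bp with 72, 85 and 49 reads. Tal1 and Id3 were the 2 whose start was under a peak of the WT list only, and both starts carried a H3K27ac peak within 1 kb in all 3 lists.

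Of 105 cytokines and chemokines, 32 had their start in a region (30.5%), in 30 regions, and 22 of the 32 starts were under a peak of all 3 lists, against the same 82.3%. The T-helper 2 genes on chromosome 11 had neighbouring regions. Il13 lay under 31.3, 35.2 and 32.9 reads per kb and Il5 under 27.6, 34.1 and 24.2, while the region of Il4 had 23.9, 26.2 and 21.2, with the start itself under a peak of the mdxTLR4-/- list alone. Csf2 and Il3, growth factors of myeloid cells, shared a region with 39.4, 48.3 and 36.9. Tnfsf11, which encodes the osteoclast factor RANKL, was the densest of the list with 59.7, 70.0 and 45.9. Il12a, measured by ChIP-qPCR in the study, lay at the edge of a region of 4800 bp, chr3:68690001-68694800, with 191, 240 and 145 reads, 4000, 4600 and 3600 bp under peaks, and 47.8, 52.2 and 40.3 reads per kb. The read ratio of mdx to WT there was 1.26 (exact interval 1.03 to 1.53) and that of mdxTLR4-/- to mdx was 0.604 (0.488 to 0.746), against medians of 1.17 and 0.752 over all the regions. The study's own ChIP-seq tracks at Il12a show the opposite order, with the mdx signal below those of WT and mdxTLR4-/- BMDM. For its ChIP-qPCR of marker gene promoters, the study likewise reports lower occupancy in mdx than in WT and relatively higher levels in mdxTLR4-/- BMDM. It also reports a reduced H3K27me3 signal in mdx BMDM genome-wide. The read counts given here are unscaled for depth. Il1b, an inflammatory cytokine, had 72, 154 and 48 reads over 3800, 6800 and 2800 bp of peaks, with the start under a peak of the WT list only.

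**Figure D2:**
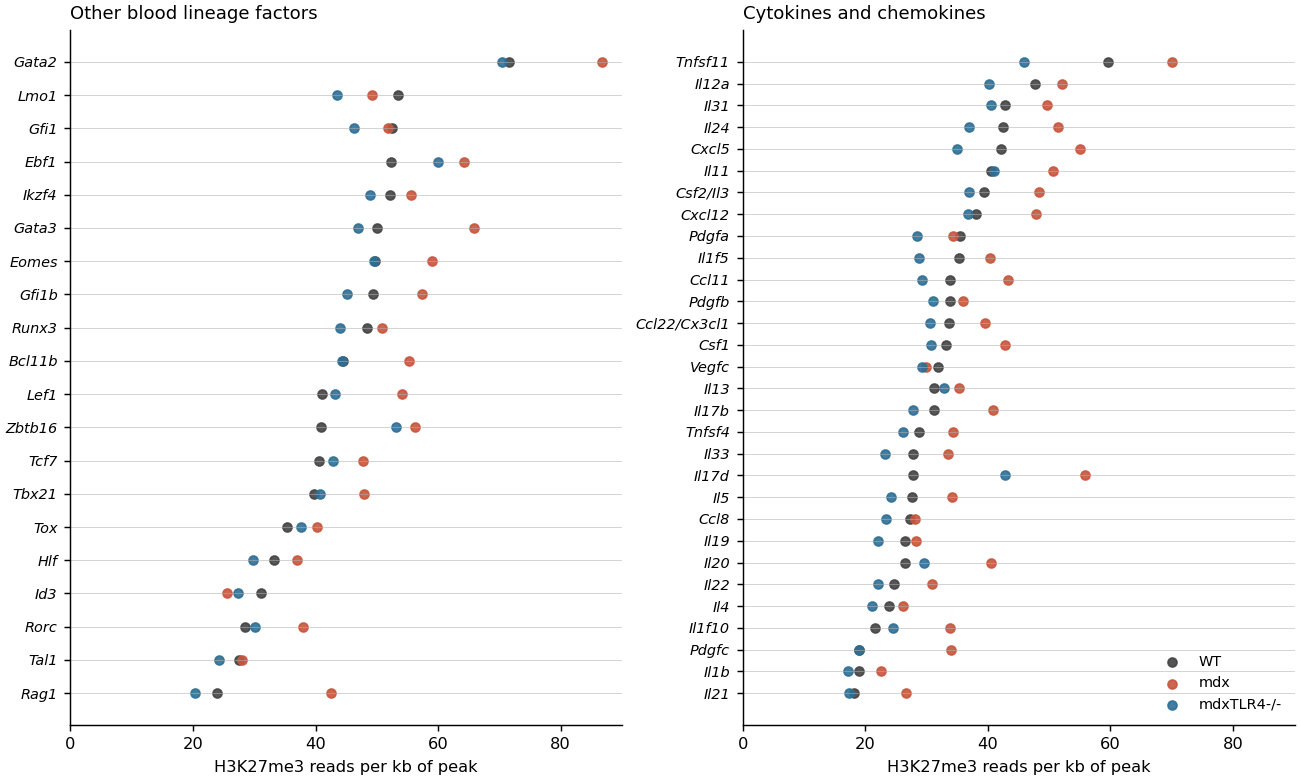
H3K27me3 reads per kb of peak (x axis) in the WT, mdx and mdxTLR4-/- lists (1 point each) for the regions over the starts of 20 other blood lineage factors (left) and of the cytokines and chemokines (right), ordered by the WT value. The mdx point is the rightmost in 17 of 20 regions on the left and in 28 of 30 on the right, unscaled for depth, against 88.1% of all 3665 regions; 1 region of the blood lineage list, in which mdx was not the highest, is not shown.

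Between genotypes, the regions over starts had median ratios close to those of the other shared regions. The density in mdx was higher than in WT in 92.6% of the regions, and the median ratio was 1.22 (order-statistic interval 1.21 to 1.22). The ratio of mdxTLR4-/- to WT had a median of 0.975 (0.970 to 0.979) and that of mdxTLR4-/- to mdx 0.802 (0.798 to 0.806). The mdx list was the highest of the 3 in 88.1% (87.0 to 89.1) of the regions over starts and in 83.6% (82.9 to 84.2) of those away from starts, and in 99.6% (98.9 to 99.9) of domains of 50 kb or more. The medians away from starts were 1.22, 0.953 and 0.784, and those of domains of 50 kb or more were 1.21, 0.968 and 0.805. These ratios hold the unknown ratio of the depths. Scaled to reads in peaks, the medians in regions over starts became 0.994, 1.10 and 1.11. When each list was divided by its own 1st percentile of density they became 1.04, 1.07 and 1.02, so the order of the genotypes depends on the scaling. Divided by the median of all shared regions, the median mdx to WT ratio of the lists with at least 11 regions was between 0.966 (blood lineage factors) and 1.06 (T-box and Gata factors).

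**Figure D3:**
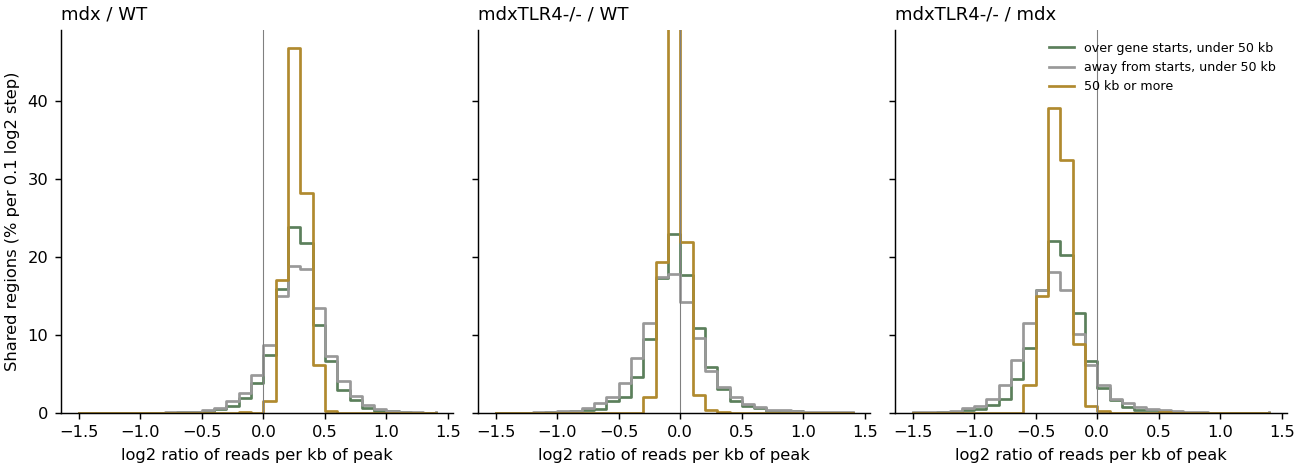
Distribution of the log2 ratio of reads per kb of peak between the lists (x axis, steps of 0.1) for shared regions over gene starts, away from starts and of 50 kb or more (y axis, percent of the regions of each class), unscaled for depth. The 3 classes are centred together, at median ratios of 1.22, 0.975 and 0.802 for the regions over starts, and the longest domains are the narrowest.

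Single regions past 1.5-fold were few. After division by the median of all shared regions, 27 regions (0.737%) had an mdx to WT ratio of at least 1.5 and 28 (0.764%) of at most the inverse, where the background over all 17005 shared regions was 1.03% and 1.04%. For mdxTLR4-/- against WT there were 63 above (1.72%) and 38 below (1.04%), on a background of 2.49% and 1.55%. For mdxTLR4-/- against mdx there were 50 above (1.36%) and 29 below (0.791%), on a background of 2.23% and 1.43%. The shares were below the background in every direction. Of the 17005 regions in it, 12546 lay away from starts. Those had a lower median length (8000 against 12800 bp) and a lower WT density (23.9 against 33.8 reads per kb). The regions over starts called for mdx against WT were short themselves, with median lengths of 4400 bp (higher) and 4800 bp (lower). The part of length and read count in the low shares was not tested.

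These calls went with the length of the peaks. Of the 27 regions with higher density in mdx than in WT, 25 had a shorter called length in mdx, while 10 held fewer reads. Of the 28 with lower density, all 28 had a longer called length, 25 of them with as many or more reads. Of the 50 with higher density in mdxTLR4-/- than in mdx, 49 were shorter and 48 held fewer reads. Satb1, a chromatin organiser of T cells, had the lowest mdx to WT ratio of density among regions with at least 100 reads in the lists compared, summed, and it held 81 reads (WT), 145 (mdx) and 108 (mdxTLR4-/-) over 1200, 3600 and 3400 bp of peaks. Cadps2, which acts in the release of dense-core vesicles, had the highest ratio, with 127, 143 and 119 reads over 6400, 3200 and 3800 bp. Eva1b had the highest ratio of mdxTLR4-/- to mdx, with 173, 198 and 43 reads over 7800, 7400 and 1000 bp, where the density rose from 26.8 to 43.0 reads per kb as the reads fell. Myocd, the coactivator of smooth muscle genes, had the lowest, with 49, 58 and 55 reads over 1400, 1000 and 2600 bp. In these calls a shorter called length mostly went with the higher density, with fewer reads in some regions and not in others. Reads, length and density are therefore given together below.

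The length under peaks was longest in the WT list and shortest in the mdxTLR4-/- list. The median share of the merged region under peaks was 92.3% (WT), 88.2% (mdx) and 81.7% (mdxTLR4-/-), against 87.9%, 81.1% and 69.9% in the regions away from starts. A single peak of the list touched the region in 73.4% of the regions (WT), 62.1% (mdx) and 57.7% (mdxTLR4-/-). The length was shorter in mdx than in WT in 2111 regions (57.6%) and longer in 1378 (37.6%). Away from starts these shares were 57.1% and 38.0%. The length was shorter in mdxTLR4-/- than in mdx in 2235 regions (61.0%) and longer in 1238 (33.8%). Away from starts the shares were 63.1% and 32.1%, so these counts were not particular to the regions over starts. A comparison of lengths was added after the density values were seen. In it, the called length in mdx was at most 1/2 of that in WT in 101 regions (2.76%) and at least 2 times in 52 (1.42%), where 6.62% and 3.29% of all shared regions were. Against mdx, the length in mdxTLR4-/- was at most 1/2 in 144 (3.93%) and at least 2 times in 38 (1.04%), on a background of 9.69% and 2.93%. Against WT, it was at most 1/2 in 184 (5.02%) and at least 2 times in 25 (0.682%), on a background of 12.7% and 1.83%. The shares were below the background throughout, in which most regions lay away from starts and were shorter and less dense. The called length of a weak region depends on the depth of the list. The parts of depth, length and density were not tested.

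The 5 regions named in this paragraph as much shorter in mdx than in WT had a WT density below the lower quartile of 27.05 reads per kb. Tmeff1, named below, was also much shorter in mdx, with a WT density above this quartile. Pnpla1, a lipid enzyme of the skin, held 226 reads over 11400 bp (WT), 75 over 2400 bp (mdx) and 95 over 3600 bp (mdxTLR4-/-). Hdc, the enzyme that makes histamine in mast cells and basophils, held 168 reads over 8800 bp, 70 over 2800 bp and 71 over 4000 bp. In both, the mdx and mdxTLR4-/- lists were close and the WT list stood apart. Other regions were short in mdx alone. Tcl1b5 held 214, 64 and 226 reads over 9200, 2600 and 10000 bp, with a read ratio of mdxTLR4-/- to mdx of 3.53 (exact interval 2.66 to 4.74). A430078G23Rik held 157, 44 and 129 reads over 8200, 2200 and 8200 bp. Pglyrp1, an antibacterial protein of neutrophils, held 326, 148 and 228 reads over 14800, 4000 and 11200 bp, and its start was under a peak in WT and mdxTLR4-/- BMDM and not in mdx BMDM. Tcl1b5 belongs to a cluster of similar genes, so its reads are uncertain.

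Other regions were longer in mdx. Olah, an enzyme of fatty acid release, held 59, 227 and 55 reads over 3400, 10800 and 3000 bp, so that the mdx list alone was high, with a read ratio of mdx to WT of 3.85 (exact interval 2.88 to 5.21). Gm10190 held 64, 229 and 134 reads over 2400, 9800 and 7600 bp. S100a14, a calcium-binding protein of epithelia, held 54, 166 and 113 over 2000, 7000 and 6200 bp. Kat6b, a histone acetyltransferase, held 174, 462 and 306 over 8400, 19000 and 17600 bp. Zfp872 differed in density as well, with 176, 554 and 412 reads, 24.4, 44.7 and 33.2 reads per kb, and a read ratio of mdx to WT of 3.15 (2.65 to 3.75). Zinc finger genes such as Zfp872 have close relatives, and its reads are uncertain to that extent. In the last 4 regions, both mdx and mdxTLR4-/- BMDM were above WT in reads and in length. In reads per kb, Gm10190 (26.7, 23.4 and 17.6) was below WT in both lists, as was S100a14, and Kat6b had 20.7, 24.3 and 17.4.

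A last group was short in mdxTLR4-/- BMDM alone. Tmem176a and Tmem176b, membrane proteins of myeloid cells with starts back to back, shared a region with 142, 185 and 36 reads over 6200, 5600 and 1000 bp, and H3K27ac peaks within 1 kb of these starts held 11 reads (WT), 7 (mdx) and none (mdxTLR4-/-). Pde5a, which degrades cyclic GMP, held 199, 178 and 35 reads over 8600, 7600 and 1800 bp. Ear6, a ribonuclease of eosinophils, held 109, 204 and 36 over 5800, 8000 and 1600 bp, and it has close relatives, so its reads are uncertain. The starts of Eva1b, Pde5a, Tmem176a and Tmem176b were under peaks in WT and mdx and missed in mdxTLR4-/- BMDM. In the opposite direction, Tmeff1 held 256, 144 and 189 reads over 8800, 3400 and 8000 bp, and Lmcd1, a LIM protein of muscle, 116, 106 and 149 over 2800, 2000 and 5800 bp.

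**Figure D4:**
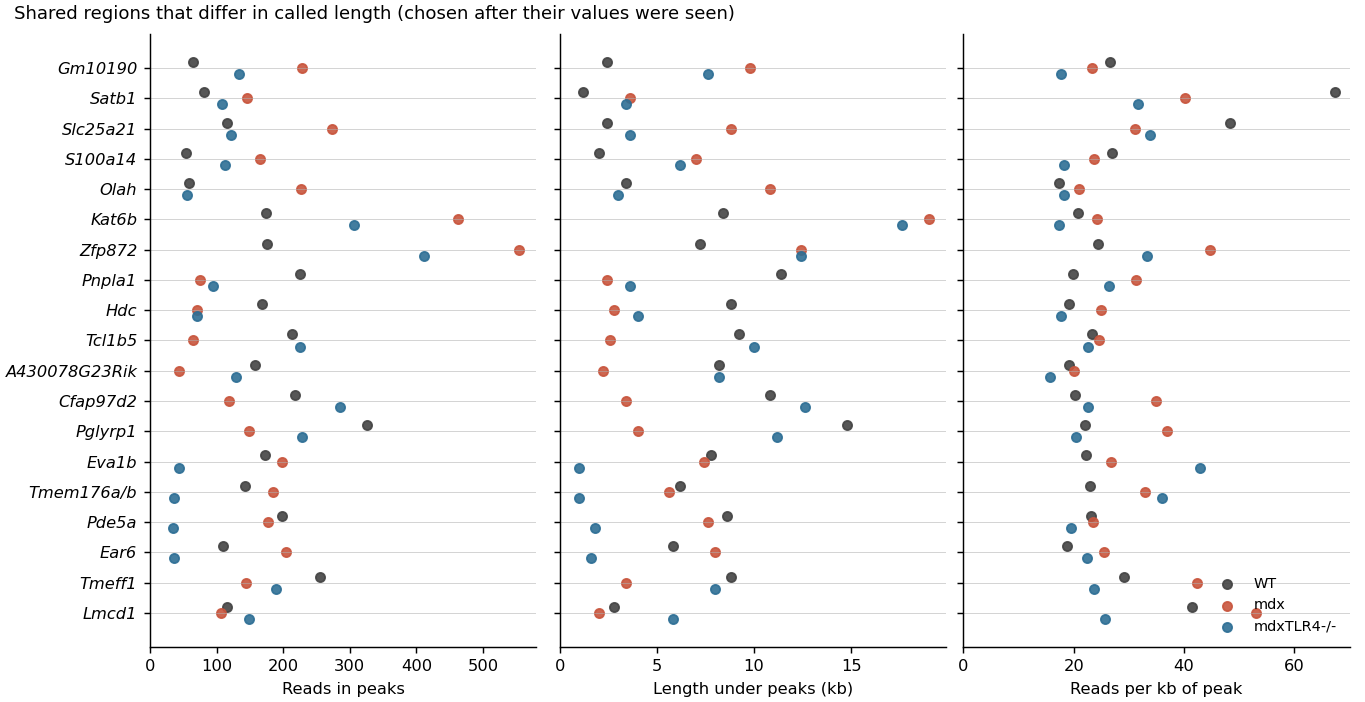
Reads in peaks (left), length under peaks in kb (middle) and reads per kb of peak (right) in the WT, mdx and mdxTLR4-/- lists for 19 regions with large differences in called length, chosen after their values were seen. Regions with few reads in a list have a short length there, while their reads per kb are often as high as or higher than in the other lists, as for Eva1b with 43 reads over 1000 bp in mdxTLR4-/- BMDM.

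At the starts themselves, 3401 of 4131 (82.3%, Wilson interval 81.1 to 83.5) were under a peak in all 3 lists. Of the 5752 starts in any merged region, 75.9% were. These include 588 starts in regions that not all 3 lists shared, which cannot be under a peak of all 3. The higher share in the regions over starts is therefore not a result. Since a region had to hold a start, cover at the start is high by the rule, and the differences between lists are what can be read. The start was under a peak in 3905 cases of the WT list (94.5%), 3767 of the mdx list (91.2%) and 3673 of the mdxTLR4-/- list (88.9%). Over all 20807 starts the shares were 24.5% (WT), 24.7% (mdx) and 23.6% (mdxTLR4-/-). The higher cover in WT than in mdx was thus not found over all starts. WT and mdx without mdxTLR4-/- accounted for 203 starts, WT alone for 168, and WT and mdxTLR4-/- without mdx for 133. The patterns without WT were rarer, with 87 for mdx alone, 76 for mdx and mdxTLR4-/-, and 63 for mdxTLR4-/- alone. Among the starts in these regions, 301 were under a WT peak and not a mdx peak while 163 were the reverse.

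The start farthest from any mdx peak among those under a WT peak was that of Gm20767, at 7046 bp. Angel1 (4941 bp), Catsperd (4858 bp), the chemokine receptor Ccr6 (3958 bp) and Rslcan18 (3738 bp) followed. In reverse, the start of Kat6b was 9234 bp from the nearest WT peak and that of Myo7a, the myosin of hair cells, 6324 bp. Between mdx and mdxTLR4-/- BMDM, 290 starts were under a mdx peak only and 196 under a mdxTLR4-/- peak only. The farthest of the first kind was Fez1, which acts in axon growth, at 6937 bp. Of the second kind, Fkbp5, a cochaperone of the glucocorticoid receptor, was 3074 bp from the nearest mdx peak and was under a peak of the mdxTLR4-/- list alone.

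The peaks reached farther into the gene than upstream of it. From the start, the covering peak extended a median of 5197 bp downstream and 3773 bp upstream (WT), 4795 and 3467 bp (mdx) and 4126 and 3068 bp (mdxTLR4-/-). It was longer downstream at 61.4% (59.8 to 62.9), 62.5% (60.9 to 64.0) and 63.1% (61.5 to 64.6) of the starts. At 5 kb downstream, 59.7% of the starts (WT), 58.1% (mdx) and 53.5% (mdxTLR4-/-) were still covered, against 50.8%, 50.01% and 44.0% at 5 kb upstream. The mdxTLR4-/- list was the lowest at both distances. The start used is the outermost 5′ end of a gene, so any other transcript start of the gene lies downstream of it. The part of this in the longer downstream cover was not tested.

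**Figure D5:**
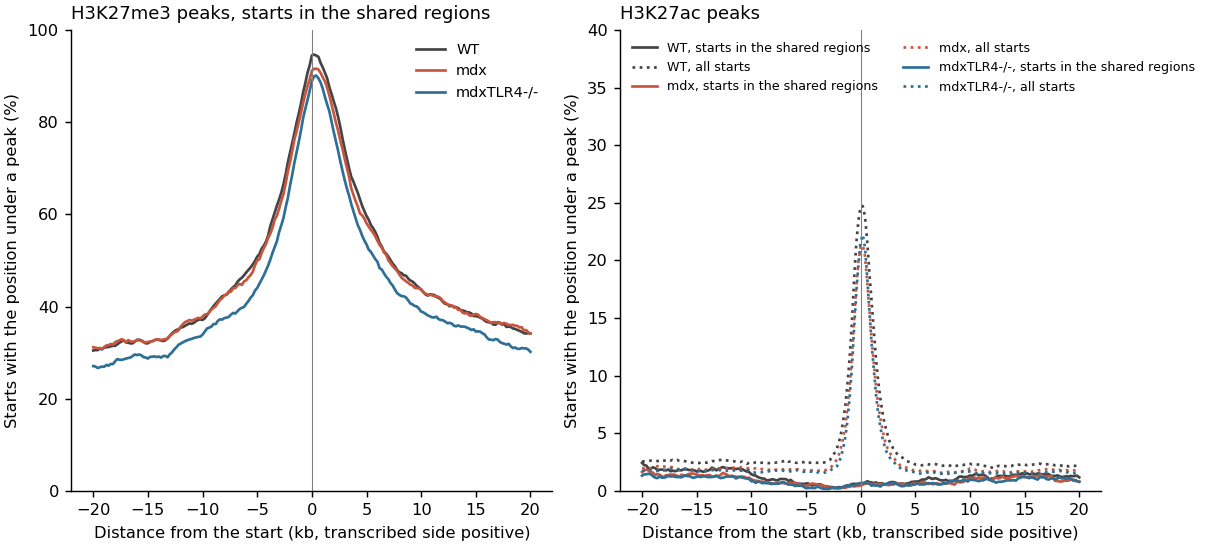
Share of protein-coding starts (y axis, percent) for which a position at the given distance (x axis, kb, with the transcribed side positive) was under a peak of H3K27me3 (left, 4131 starts in the shared regions) or H3K27ac (right, the same starts as solid lines and all 20807 starts as dotted lines) in the WT, mdx and mdxTLR4-/- lists. H3K27me3 cover is highest just past the start and lowest in mdxTLR4-/- BMDM, and H3K27ac stays below 1% at the starts in the regions while it reaches 24.7%, 21.2% and 21.7% at the start over all starts.

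H3K27ac was nearly absent from these starts. In the WT list, a H3K27ac peak lay within 1 kb of 60 of the 4131 starts (1.45%, Wilson interval 1.13 to 1.86). The mdx list had 45 (1.09%, 0.815 to 1.45), and the mdxTLR4-/- list 56 (1.36%, 1.05 to 1.76). The same shares for the 15055 starts in no H3K27me3 region were 39.2%, 33.6% and 36.3%. They were 0.581%, 0.387% and 0.678% for the 1033 starts in shared domains of 50 kb or more. For the 588 starts in regions that not all 3 lists shared they were 1.53%, 1.53% and 1.02%, so low shares were not particular to these regions. The 2 marks come from separate libraries, and the H3K27ac lists were not used by the rule. All these sets of starts were defined by H3K27me3 calls, however, so the comparison is not independent of the rule. Anywhere in the region, 112 regions (3.06%) were touched by a H3K27ac peak of the WT list, 83 (2.26%) by one of the mdx list, 89 (2.43%) by one of the mdxTLR4-/- list and 21 by peaks of all 3. Of the shared regions away from starts, 1.55% (WT), 1.20% (mdx) and 1.13% (mdxTLR4-/-) were touched. Of the domains of 50 kb or more, 7.05%, 6.42% and 4.91% were. The share in WT rose with length, from 1.66% below 5 kb to 4.01% above 20 kb. Over starts, the intervals of the 3 genotypes overlapped, and the mdxTLR4-/- list rests on 1 library.

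The starts that carried H3K27ac were nearer to the edge of the methylated regions than the others. Of the 93 with a H3K27ac peak within 1 kb in at least 1 list, 27 (29.0%, Wilson interval 20.8 to 38.9) were under a H3K27me3 peak of every list, 63.4% were within 2 kb of the edge of the merged region, and the median distance was 914 bp. Of 24 starts with a H3K27ac peak within 1 kb in all 3 lists, 3 (12.5%, Wilson interval 4.34 to 31.0) were under a H3K27me3 peak of every list, while 3374 of 4038 starts without H3K27ac (83.6%, 82.4 to 84.7) were. Their median distance to the nearest edge of the merged region was 596 bp, against 3660 bp for the starts without H3K27ac, and 87.5% against 27.4% were within 2 kb of it. By the sum over the 3 lists, the most H3K27ac reads were at Dynlt1a, a dynein light chain with near-identical copies nearby, with 74, 59 and 57, and at Zfp991, a zinc finger gene with close relatives, with 87, 60 and 31. Slfn5, an interferon-induced gene, had 48, 47 and 33, and Cmklr1, the chemerin receptor of macrophages, 37, 39 and 13.

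Short sequence words were counted at the starts. Of the 20807 starts, 12188 had a RefSeq promoter whose start was within 200 bp, 2387 of them in the regions, and its 300 bases, from 250 before to 50 after the start, were searched on both strands. The TATA word TATAAA was in 11.9% of these promoters in the regions and 11.6% of all, and the GC box GGGCGG in 51.6% and 51.9%. The CCAAT word was in 34.6% and 39.2%. The word GAGGAAGT, the core that PU.1, the master factor of macrophages, binds, was in 41 promoters of the regions (1.72%) and in 430 of all (3.53%), and in 4.12% of the 8905 in no region. A match is a word in a window and not a bound site.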

How the data were processed

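ChIP-seq of H3K27me3 and H3K27ac was analysed in BMDM of WT, mdx and mdxTLR4-/- mice (18 samples, inputs included). Per the submitters' processing notes and the study's methods, the authors used CASAVA 1.8, cutadapt 1.15 and Bowtie2 2.3.4 on mm10, merged replicates, and called peaks with SICER 2.0 (window 200 bp, gap 600 bp, FDR below 0.01). Per the study's methods, mapping and peak calling used default settings; a separate treatment of reads with several matches, duplicates or excluded regions is not given in the sources used here. The authors deposited 6 lists, with a read count per peak, unscaled and without subtraction of input. The values were checked to be whole numbers on a 200 bp grid, with 0 peaks past a chromosome end of GRCm38.

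Reads and lengths of all peaks of a list that touched a region were summed, and density was their quotient. Densities were compared as ratios divided by the median of all 17005 shared regions, with 1.5-fold as the limit of a call. Intervals were Wilson for shares, order-statistic for medians and exact Clopper-Pearson for read ratios of single regions. The intervals of shares and read ratios cover counting error only, those of medians the spread among regions, and the precision between mice is unknown. Gene starts were from GENCODE vM21 and promoter sequences from RefSeq (GRCm38.p6). Regions were named by fixed rules: the 5 highest and 5 lowest density ratios with at least 100 reads summed over the lists compared, the densest, longest and shortest, those with most starts, the extremes of each of 29 gene lists, and the starts missed by a list or carrying H3K27ac. Regions named for their called length, with at least 200 reads in those lists, Il1b, and the regions named as members of a list beyond its extremes were chosen after their values were seen. The regions, the lists and the rules were chosen with earlier results of these data known. Alternatives were the peaks used, the merging, the length limit, the kind of start, the scaling, the denominator, the fold, the cover of the start and the H3K27ac rule. Some genes that these rules name are not reported here. Functions were tested on simulated peak lists. Software was pandas 2.3.3, numpy 2.4.6 and scipy 1.17.1 under Python 3.11.15, with plots by matplotlib 3.10.9.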

Additional observations from a re-analysis of the deposited data

How the results depend on the processing

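No paired analysis was possible because the authors merged the replicates before they called peaks, and for the same reason no library could be left out. Of 69 comparisons over 14 alternatives, 41 stayed within the interval or within 1.5 times the main value, 23 moved and 5 reversed. The median mdx/WT density ratio of 1.22 turned to 0.994 scaled to reads in peaks, and was 1.04 relative to the 1st percentile of density, 1.17 per kb of merged region, 1.23 with the same number of peaks per list and 1.20 in regions with at least 90% under peaks in both lists (an alternative chosen after seeing the data). The mdxTLR4-/-/WT ratio of 0.975 turned to 1.10 and 1.07 under the 2 scalings, and was 0.887 per kb of merged region, 0.989 with the same number of peaks and 0.952 with at least 90% under peaks. The mdxTLR4-/-/mdx ratio of 0.802 turned to 1.11 and 1.02 under the 2 scalings and was 0.752 per kb of merged region. The scalings change the ratio by construction, since the depth of the libraries is unknown. Regions past 1.5-fold numbered 55 for mdx/WT, 101 for mdxTLR4-/-/WT and 79 for mdxTLR4-/-/mdx. With peaks of at least 2 kb they were 36, 59 and 48, per kb of merged region 296, 265 and 326, and past 2-fold 1, 9 and 2. Called lengths, added after the data were seen, differed by 2-fold in 153, 209 and 182. Per kb of merged region, the called length enters the ratio, and for mdxTLR4-/-/mdx the split of 50 higher and 29 lower became 135 and 191; for mdxTLR4-/-/WT 63 and 38 became 94 and 171. Starts under a peak of all 3 lists were 3401, and 8264 when every protein-coding transcript counted as a start. The share of regions touched by H3K27ac in WT was 3.06%, 1.58% within 1 kb of a start and 1.12% with at least 1000 bp under such peaks. The number of regions, 3665, ranged from 3101 below 30 kb to 4332 with transcript starts. A list per genotype without replicates, unknown depth, labelled ages that follow the genotype and shallow H3K27ac lists limit all comparisons between genotypes.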
